A study of Homo sapiens with 6 samples.

Results

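SR and hnRNP splicing factors were followed in RNA-seq of NB4 cells, a human acute promyelocytic leukemia line, with 3 libraries of not treated cells and 3 of cells given 10 µM maltonis for 24 h. Maltonis is a synthetic molecule derived from maltol, dissolved in water, and the control cells are described only as not treated, with no mention of the solvent. The question was how exposure to maltonis changed the mRNA of these factors. Members were all symbols in the deposited count tables made of SRSF and a number, and all beginning with HNRNP other than pseudogenes and antisense symbols. There were 33 of 23368 symbols, 12 SRSF and 21 HNRNP, and 31 of them, 11 SRSF and 20 HNRNP, had enough counts to enter the test of 13209 genes. SRSF12 had 4 to 7 counts in every library and HNRNPCL1 had 0 in all 6, so neither was tested, and 3 counts correspond to 0.0785 to 0.162 CPM in these libraries. HNRNPUL2-BSCL2, a symbol for transcripts that read through from HNRNPUL2 into its neighbor, is listed as a non-coding RNA in RefSeq and was kept because the rule takes its symbol.

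SR proteins carry RNA recognition motifs and a tail rich in arginine and serine, through which they bind exonic enhancers and help the U1 and U2 particles to find splice sites. Kinases of the SRPK and CLK families phosphorylate that tail and control where SR proteins act. The hnRNP proteins coat nascent pre-mRNA, often hold exons out of the mRNA by binding silencers, and also serve in RNA packaging, export and decay. Many genes of both families limit their own mRNA by including exons that lead to nonsense-mediated decay.

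The libraries held 18492154 to 38205483 counts. Replicate 1 of each group carried a library code called batch A here, and replicates 2 and 3 carried a different code, called batch B. The meaning of the code is not stated. The 9 myeloid markers summed to 14250 to 16660 normalized CPM in the not treated libraries and 8835 to 9338 in the maltonis libraries. Most of this sum was MPO, and of the 9 genes 5, MPO among them, were called lower and 3 higher, with the largest rise in CTSG (log2 fold change 2.34). Markers of other cell types summed to 70.3 to 74.1 and 41.5 to 48.5 CPM. Nearly all of this came from CD3D (mean 43.7 CPM not treated and 15.3 with maltonis), EPCAM (17.1 and 11.2) and PECAM1 (11.1 and 18.7). CD3D and EPCAM were called lower and PECAM1 higher. MS4A1 and HBB, which mark B cells and red cells, were at 0 in all libraries. The part of these marker changes in the results below was not tested. Maltonis lowered or raised 64.0% of all genes tested at a false discovery rate (FDR, the adjusted p of edgeR's quasi-likelihood test) under 0.01, 32.1% lower and 31.9% higher, so each count below is to be read against these shares. All counts are relative to the library, so a fall in these transcripts cannot be told apart from a rise in the others. Amounts per cell are not known from them.

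SRSF mRNA was lower after maltonis for most of the family. Of 11 SRSF genes tested, 8 fell at FDR under 0.01, against 32.1% of all genes called lower, none rose, against 31.9% called higher, and 3 were not called. Their median log2 fold change was −0.39, against 0.01 over all genes tested. At an unadjusted p under 0.05 in edgeR 2 genes, SRSF4 and SRSF5, were higher, and DESeq2 called 2 higher. In all 8 that fell, every maltonis library lay below every not treated library, which held for 37.8% of all genes. The family summed to 3568, 3761 and 3572 normalized CPM in the not treated libraries and to 2645, 2757 and 2788 in the maltonis libraries, so that the mean fell by 24.9% (it fell by 25.9% within batch A and fell by 24.4% within batch B).

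**Figure D1:**
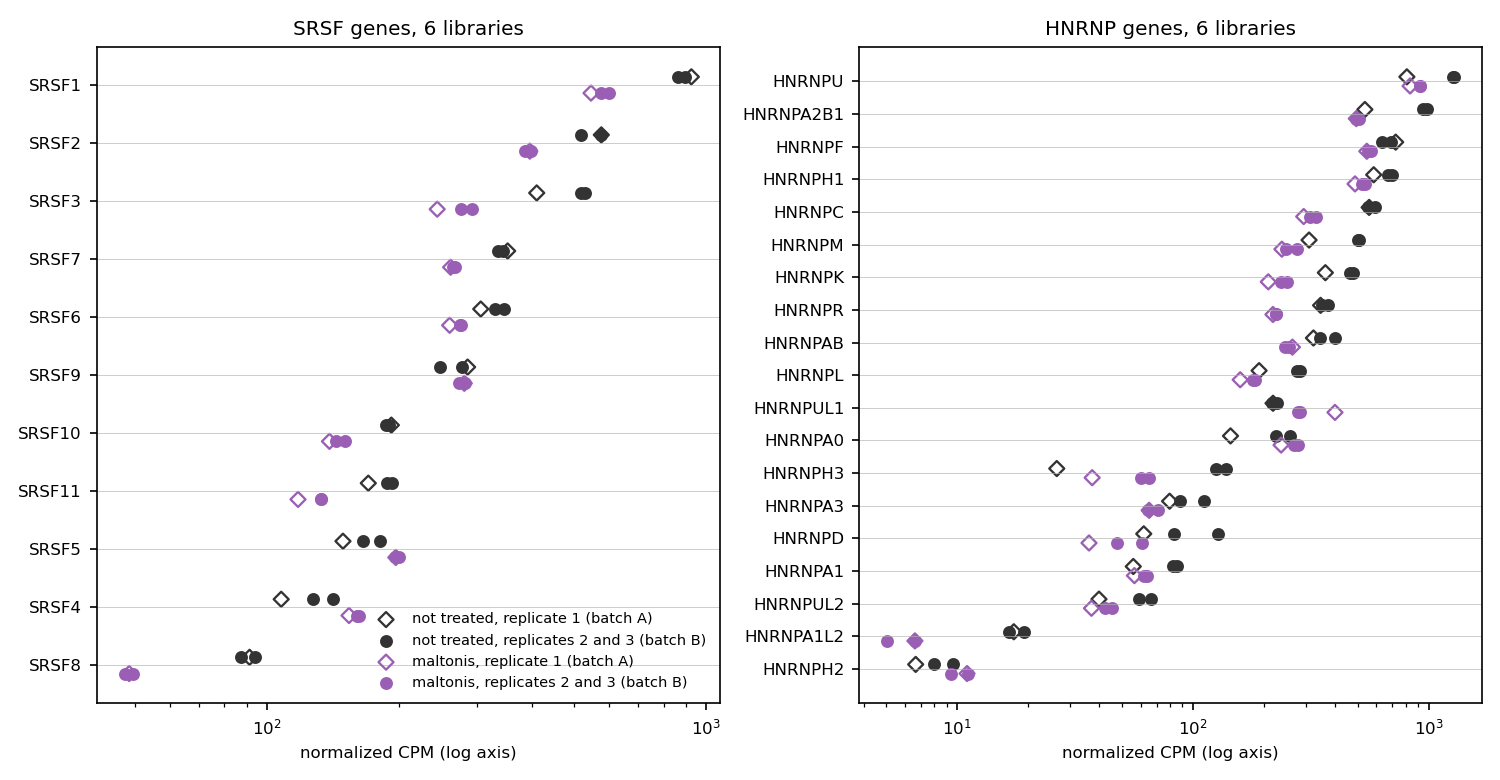
Normalized CPM (CPM after TMM scaling, log axis) of the tested SRSF genes and of the tested HNRNP genes other than the low HNRNPUL2-BSCL2. Each symbol is 1 library, with diamonds for replicate 1 (batch A) and filled circles for replicates 2 and 3 (batch B). Not treated replicate 1 lies close to the other not treated libraries for most SRSF genes and well to the left of them for HNRNPH3, HNRNPA2B1, HNRNPM and HNRNPU.

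SRSF8 and SRSF3 had the largest falls of the SRSF family. SRSF8, a copy of SRSF2 made by retrotransposition, had 91.2, 93.8 and 87.3 normalized CPM in the not treated libraries (replicates 1, 2 and 3) and 48.5, 47.5 and 49.5 in the maltonis libraries. The groups were far apart and the replicates close together (log2 fold change −0.91 ± 0.0592 (SE), adjusted p = 1.77e-06), and the log2 difference was −0.91 within batch A and −0.90 within batch B. Reads of SRSF8 and SRSF2 could have been shared in the counting, and both were lower. SRSF3, the smallest SR protein and an adaptor for mRNA export, had 411, 530.0 and 518 normalized CPM in the not treated libraries (replicates 1, 2 and 3) and 244, 276 and 292 in the maltonis libraries. Not treated replicate 1 was the lowest of its group and still above all maltonis libraries (log2 fold change −0.84 ± 0.108 (SE), adjusted p = 1.13e-04; −0.75 within batch A and −0.88 within batch B).

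SRSF1, which helps recruit the U1 particle to splice sites, had the highest level of the family per transcript length, at 268 RPKM (CPM divided by the annotated exon length in kilobases) in the not treated group and 172 with maltonis. Its values were 924, 894 and 862 normalized CPM in the not treated libraries (replicates 1, 2 and 3) and 546, 575 and 599.9 in the maltonis libraries. The drop was 1.56-fold with no overlap between groups (log2 fold change −0.64 ± 0.0602 (SE), adjusted p = 1.64e-05; −0.76 within batch A and −0.58 within batch B). SRSF2, which is recurrently mutated in myeloid neoplasms, stood next at 185 RPKM not treated and 130.5 with maltonis. It had 577, 576 and 518 normalized CPM not treated and 396, 399 and 386 with maltonis (log2 fold change −0.50 ± 0.0614 (SE), adjusted p = 8.65e-05; −0.54 within batch A and −0.48 within batch B).

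SRSF11, SRSF10, SRSF7 and SRSF6 fell by less. SRSF11 had 170.0, 188 and 193 normalized CPM not treated and 118, 132.4 and 133 with maltonis (log2 fold change −0.52 ± 0.0737 (SE), adjusted p = 2.06e-04). SRSF10, which represses splicing once it is dephosphorylated, had 192, 189 and 186 normalized CPM not treated and 139, 144 and 150.3 with maltonis (log2 fold change −0.39 ± 0.0550 (SE), adjusted p = 2.07e-04). SRSF7, an export adaptor related to SRSF3, had 353, 345 and 336 normalized CPM not treated and 262, 266 and 268 with maltonis (log2 fold change −0.38 ± 0.0516 (SE), adjusted p = 1.70e-04). These 3 genes differed by about the same amount in both batches, with log2 differences of −0.53, −0.47 and −0.43 in batch A and −0.52, −0.35 and −0.35 in batch B. SRSF6, which is needed for enhancer-dependent splicing, had the smallest drop among those called, with 307, 346 and 331 normalized CPM not treated and 260.4, 275 and 277 with maltonis (log2 fold change −0.28 ± 0.0631 (SE), adjusted p = 0.00358). The call for SRSF6 was lost when any 1 maltonis library or not treated replicate 2 was left out (adjusted p from 0.01 to 0.0177), while the other 7 stayed under 0.01 without any 1 library. Over 15 alternative fits SRSF6 was called lower in 9, and each of the other 7 in all 15. Total-count scaling also removed the call for SRSF6 and kept its direction.

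SRSF4, SRSF5 and SRSF9 were not called. SRSF4, an SR protein with a long tail, had 108, 142 and 127 normalized CPM in the not treated libraries (replicates 1, 2 and 3) and 154, 160.4 and 162 in the maltonis libraries. All maltonis libraries lay above all not treated libraries, yet the adjusted p of 0.0102 missed the threshold (log2 fold change 0.34 ± 0.0941). SRSF5 had 149, 180.3 and 166 normalized CPM in the not treated libraries (replicates 1, 2 and 3) and 196, 199.9 and 196 in the maltonis libraries, again without overlap (log2 fold change 0.26 ± 0.0739, adjusted p = 0.0116). Both sat just outside the threshold and passed it without not treated replicate 2 (adjusted p of 0.00374 for SRSF4 and 0.00612 for SRSF5). Without any other single library they did not pass, with adjusted p from 0.0107 to 0.0612 for SRSF4 and from 0.0213 to 0.0732 for SRSF5. With scaling by total counts alone, which moved the median of all genes to 0.13, the family split into 7 lower and 2 higher in place of 8 and 0, against 27.6% and 37.1% of all genes. SRSF9, the closest relative of SRSF1, had 286, 278 and 248 normalized CPM not treated and 281, 283 and 273 with maltonis, and the groups overlapped (log2 fold change 0.046 ± 0.0664, 95% interval −0.11 to 0.20, adjusted p = 0.547). In the fit with batch as a covariate SRSF4 and SRSF5 were both called higher (35.8% of all genes), and the lower calls numbered 8 (35.9% of all genes).

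**Figure D2:**
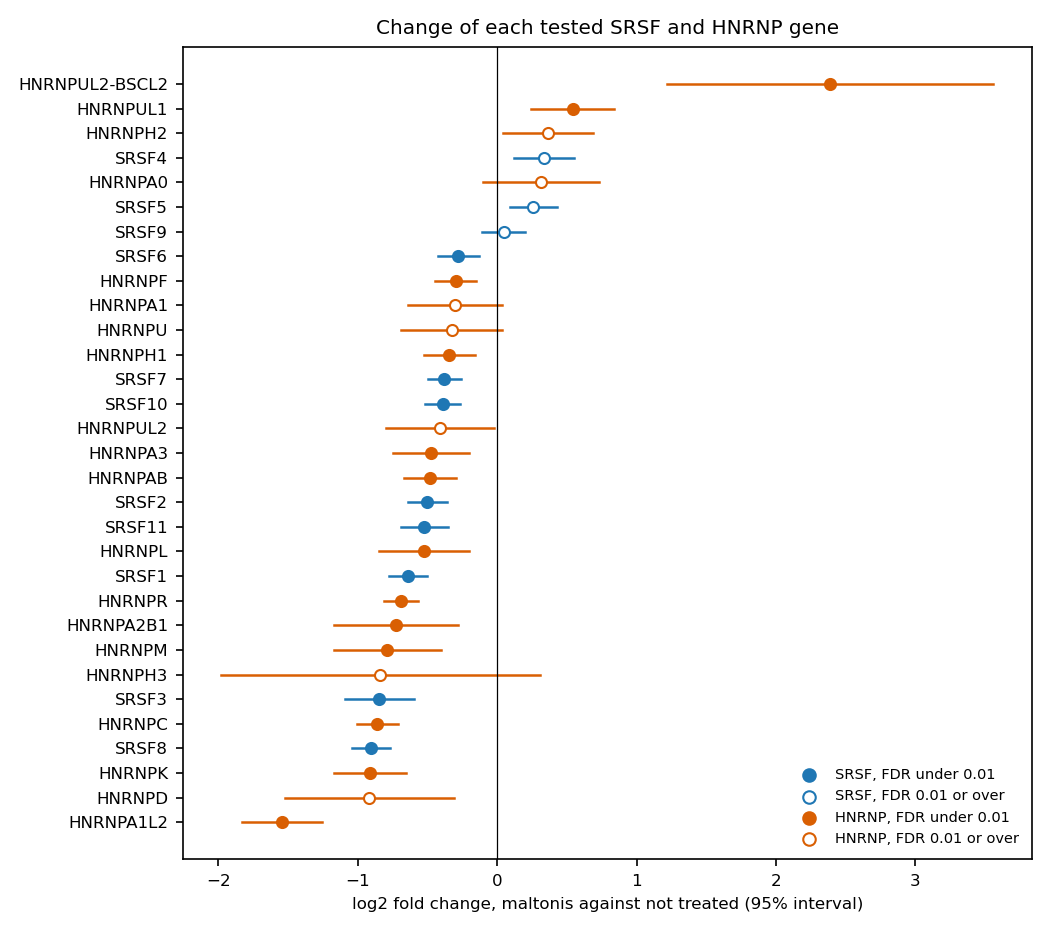
Log2 fold change of maltonis against not treated for the 31 tested members, with 95% intervals, sorted by size. Filled points have FDR under 0.01. The SRSF intervals are narrow and 8 lie below 0, while HNRNPH3, HNRNPD and HNRNPA2B1 have wide intervals, and HNRNPUL2-BSCL2 stands alone at 2.39.

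Of 20 HNRNP genes tested, 11 fell, 2 rose and 7 were not called, against 32.1% and 31.9% of all genes. Their median log2 fold change was −0.48. The family summed to 5397, 7189 and 7038 normalized CPM not treated and to 4627, 4870 and 4834 with maltonis, so that the mean fell by 27.0%. The sum fell by 14.3% within batch A, where the not treated library was low, and fell by 31.8% within batch B. In 12 of the 20 genes every maltonis library lay below every not treated library (37.8% of all genes), and in 2 the reverse held (38.8% of all genes). Only HNRNPA1L2 among those lower and HNRNPUL2-BSCL2 among those higher passed a criterion of about a 2.5-fold change with FDR under 0.01, which 20.3% of all genes passed, and no SRSF gene did in edgeR or DESeq2. The study's definition also has an RPKM minimum, which was not applied here, and HNRNPUL2-BSCL2 had 0.171 RPKM with maltonis.

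Not treated replicate 1 stood apart for many HNRNP genes. It was more than 0.5 log2 below the mean of the other not treated libraries in 9 of 20 HNRNP genes, in none of the 11 SRSF genes and in 6.72% of all genes. The 9 genes were HNRNPH3 (−2.31), HNRNPA2B1 (−0.84), HNRNPA0 (−0.74), HNRNPD (−0.74), HNRNPM (−0.69), HNRNPU (−0.65), HNRNPUL2 (−0.65), HNRNPA1 (−0.59) and HNRNPL (−0.55). Without that library 16 HNRNP genes fell and 2 rose, against 32.8% and 31.9% of all genes in that fit, and within batch B alone the counts were 16 and 2 (34.9% and 34.5%). Without not treated replicate 2, 5 fell and 0 rose, against 3801 and 3612 of 13394 genes. Without not treated replicate 3, 8 fell and 0 rose, against 4080 and 3862 of 13377 genes. Leaving out 1 maltonis library gave 6 to 7 lower and 1 to 2 higher. Against these stood 3810 to 4141 and 3503 to 3890 of 13294 to 13509 genes. With batch as a covariate 15 HNRNP genes were called lower and 3 higher, against 35.9% and 35.8% of all genes. The calls gained were HNRNPD (adjusted p = 0.000157), HNRNPUL2 (0.00155), HNRNPA1 (0.00723) and HNRNPU (0.00981) lower and HNRNPA0 (0.0061) higher. Apart from this covariate and an interaction term given below, the part of the library code in these results was not tested, and batch A holds 1 library per group.

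HNRNPA1L2, a copy of HNRNPA1 made by retrotransposition, had the largest fall of all members. It had 17.4, 19.2 and 16.6 normalized CPM in the not treated libraries (replicates 1, 2 and 3) and 6.61, 6.62 and 5.04 in the maltonis libraries, from 128 to 694 counts per library. The drop was 2.92-fold and alike in both batches (log2 fold change −1.54 ± 0.125 (SE), adjusted p = 6.44e-06; −1.38 within batch A and −1.61 within batch B). HNRNPA1 itself, a classical repressor of exon inclusion, had 55.8, 85.3 and 82.6 normalized CPM not treated and 56.4, 61.7 and 63.6 with maltonis, overlapping between groups (log2 fold change −0.30 ± 0.147, adjusted p = 0.0913). Genes made by copying HNRNPA1 share most of its sequence, so the division of reads among them is uncertain for both.

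HNRNPK, HNRNPC, HNRNPR and HNRNPAB, like HNRNPA1L2, were called lower in each of 15 alternative fits. HNRNPK, which binds poly-C stretches through KH domains, had 364, 477 and 464 normalized CPM in the not treated libraries (replicates 1, 2 and 3) and 209, 235 and 251 in the maltonis libraries. Maltonis lowered it 1.88-fold (log2 fold change −0.91 ± 0.112 (SE), adjusted p = 8.98e-05; −0.80 within batch A and −0.95 within batch B). HNRNPC, which binds uridine tracts and keeps cryptic exons out of mRNA, had 558, 592 and 555 normalized CPM in the not treated libraries (replicates 1, 2 and 3) and 295, 312 and 334 in the maltonis libraries. Its libraries were tight within each group and the drop was 1.81-fold (log2 fold change −0.86 ± 0.0646 (SE), adjusted p = 4.16e-06; −0.92 within batch A and −0.83 within batch B). HNRNPR had 348, 373 and 354 normalized CPM not treated and 218, 225 and 224 with maltonis (log2 fold change −0.69 ± 0.0543 (SE), adjusted p = 5.48e-06; −0.67 within batch A and −0.70 within batch B). HNRNPAB had 324, 399 and 344 normalized CPM not treated and 264, 255 and 245 with maltonis (log2 fold change −0.48 ± 0.0820 (SE), adjusted p = 6.42e-04; −0.30 within batch A and −0.57 within batch B).

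HNRNPM, HNRNPA2B1, HNRNPL and HNRNPA3 fell too, and their differences were smaller in batch A than in batch B. HNRNPM, which binds GU-rich RNA, had 311, 504 and 499.8 normalized CPM in the not treated libraries (replicates 1, 2 and 3) and 238, 277 and 248 in the maltonis libraries. The first not treated library was nearer to the maltonis libraries than to its own group (log2 fold change −0.79 ± 0.169 (SE), adjusted p = 0.00261; −0.38 within batch A and −0.94 within batch B), and the call was lost without maltonis replicate 1 or 3 or not treated replicate 2 (adjusted p from 0.0113 to 0.0182). HNRNPA2B1, a major protein of the hnRNP core, had 536, 942 and 980.0 normalized CPM in the not treated libraries (replicates 1, 2 and 3) and 493, 505 and 489.8 in the maltonis libraries. Batch B showed a difference of −0.95 and batch A of −0.12, and the pooled log2 fold change was −0.72 ± 0.195 (adjusted p = 0.00852). HNRNPL, which binds CA repeats, had 191, 284 and 275 normalized CPM not treated and 158, 180.0 and 183 with maltonis (log2 fold change −0.53 ± 0.141, adjusted p = 0.00858). The calls for HNRNPA2B1 and HNRNPL held without not treated replicate 1 and were lost without any other single library (adjusted p from 0.0267 to 0.0367 and from 0.0224 to 0.0427). HNRNPA3 had 79.5, 87.6 and 112 normalized CPM not treated and 65.1, 71.1 and 64.4 with maltonis (log2 fold change −0.48 ± 0.119 (SE), adjusted p = 0.00583), a call lost without any 1 maltonis library or not treated replicate 2 (adjusted p from 0.0112 to 0.0275).

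The G-tract binders HNRNPF and HNRNPH1 fell by small amounts. HNRNPF had the highest level per length of the HNRNP family, with 210.1 RPKM not treated and 171 with maltonis, ahead of HNRNPAB at 166 and 119. This rank depends on the annotated exon length. HNRNPU had more normalized CPM (not treated mean 1116, against 683 for HNRNPF). Its annotated exons sum to 22512 bases, against 3253 for HNRNPF, and it read 49.6 RPKM not treated. HNRNPF had 724, 689.8 and 636 normalized CPM not treated and 546, 569.6 and 552 with maltonis (log2 fold change −0.30 ± 0.0633 (SE), adjusted p = 0.00244; −0.41 within batch A and −0.24 within batch B), and the call was lost without not treated replicate 2 (adjusted p = 0.0104). HNRNPH1 had 584, 700.0 and 671 normalized CPM not treated and 486, 519 and 537 with maltonis (log2 fold change −0.34 ± 0.0788 (SE), adjusted p = 0.00381), a call lost without maltonis replicate 1 or 2 or not treated replicate 2 or 3 (adjusted p from 0.0111 to 0.017). Scaling by total counts removed the calls for HNRNPF, HNRNPH1, HNRNPA2B1, HNRNPA3 and HNRNPL and kept their direction. HNRNPH2, a near copy of HNRNPH1, had 6.66, 9.55 and 7.93 normalized CPM not treated and 11, 11.1 and 9.37 with maltonis with overlap between groups (log2 fold change 0.36 ± 0.142, adjusted p = 0.0431).

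HNRNPH3 differed in sign between the batches. It had 26.4, 126 and 138 normalized CPM in the not treated libraries (replicates 1, 2 and 3) and 37.3, 65.0 and 60.4 in the maltonis libraries, so that the batch A difference was 0.50 and the batch B difference −1.07. The pooled value of −0.84 ± 0.499 did not pass (adjusted p = 0.159), and without not treated replicate 1 it was −1.28 ± 0.184 (adjusted p = 1.92e-04). HNRNPD, also known as AUF1, which binds AU-rich elements and speeds mRNA decay, had 61.8, 82.8 and 128 normalized CPM in the not treated libraries (replicates 1, 2 and 3) and 36.2, 60.6 and 47.4 in the maltonis libraries. Its groups did not overlap by a small margin and its libraries scattered widely (log2 fold change −0.92 ± 0.265, adjusted p = 0.0122). HNRNPU, a nuclear scaffold protein, had 807, 1275 and 1265 normalized CPM not treated and 833, 919.9 and 919 with maltonis (log2 fold change −0.33 ± 0.158, adjusted p = 0.0913). HNRNPUL2 had 39.9, 59.1 and 66.2 normalized CPM not treated and 37.1, 42.3 and 45.3 with maltonis (log2 fold change −0.41 ± 0.169, adjusted p = 0.0544). HNRNPD, HNRNPH3, HNRNPU, HNRNPUL2 and HNRNPA1 were all called lower without not treated replicate 1, with HNRNPU at −0.52 ± 0.0630 (adjusted p = 6.13e-05) and HNRNPUL2 at −0.60 ± 0.0945 (adjusted p = 3.52e-04). HNRNPU-AS1, the antisense neighbor of HNRNPU, had 17.0 to 21.0 normalized CPM in both groups together and was not called, and whether counting used the strand is not given in the sources used here.

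HNRNPUL1 and HNRNPUL2-BSCL2 were the 2 members called higher in the fit without covariates. HNRNPUL1, a relative of HNRNPU that acts in the DNA damage response, had 218, 226 and 216 normalized CPM in the not treated libraries (replicates 1, 2 and 3) and 400.0, 285 and 278 in the maltonis libraries. Maltonis replicate 1 was above the other maltonis libraries and all 3 exceeded the not treated ones (log2 fold change 0.54 ± 0.13 (SE), adjusted p = 0.00477; 0.87 within batch A and 0.35 within batch B), and the call was lost without not treated replicate 2 or 3 (adjusted p of 0.0154 and 0.0155). HNRNPUL2-BSCL2 had 6, 3 and 2 counts not treated and 15, 26 and 14 with maltonis (log2 fold change 2.39 ± 0.512 (SE), adjusted p = 0.00231). Its counts are few, its reads overlap those of both parent genes, and leaving out not treated replicate 2 or 3 or maltonis replicate 1 or 2 ended the call (adjusted p from 0.0102 to 0.0151). HNRNPA0, which binds AU-rich elements, had 144, 257 and 226 normalized CPM not treated and 236, 268 and 277 with maltonis and was not called (log2 fold change 0.32 ± 0.182, adjusted p = 0.145; 0.71 within batch A and 0.18 within batch B). Without not treated replicate 1 its log2 fold change was 0.10 ± 0.0848 (adjusted p = 0.302).

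**Figure D3:**
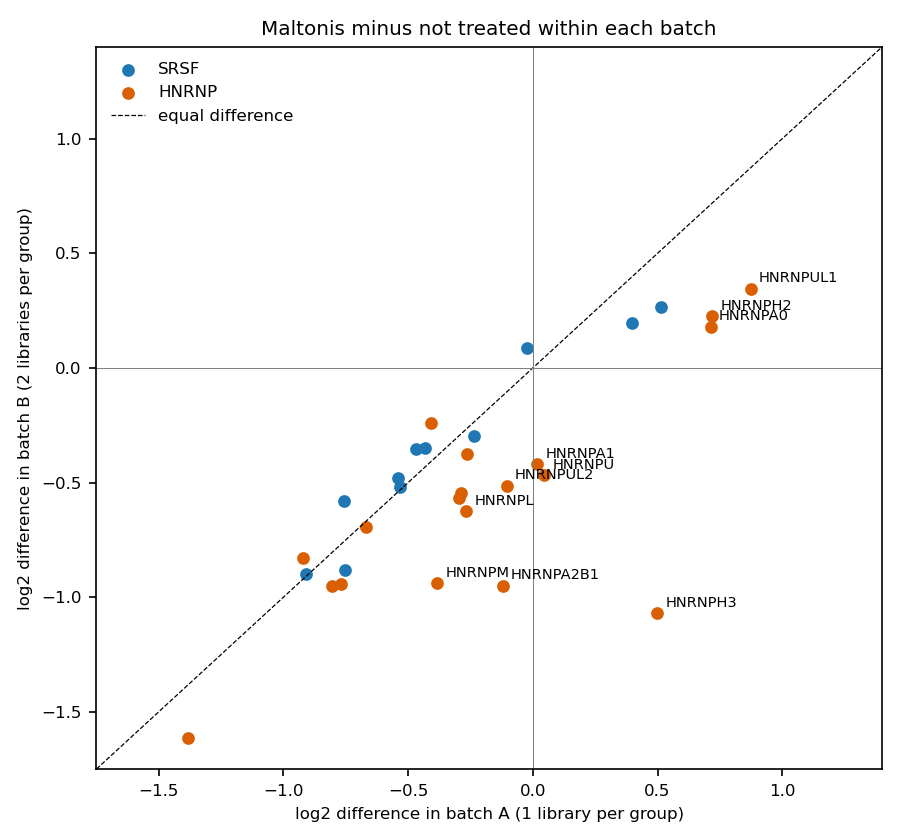
Log2 difference of maltonis minus not treated in batch A (horizontal axis, 1 library per group) and in batch B (vertical axis, mean of 2 libraries per group) for the tested members other than HNRNPUL2-BSCL2, with genes named where the axes differ by more than 0.35. The SRSF genes lie near the dashed line of equal difference, and HNRNPH3 (0.50 within batch A and −1.07 within batch B), HNRNPA2B1 and HNRNPM lie far below it.

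Within batch A 9 of 11 SRSF genes were lower with maltonis (48.8% of all genes) and within batch B 8 of 11 (49.6%). For the HNRNP genes these counts were 13 and 16 of 20. The SRSF genes had a median log2 difference of −0.47 (batch A) and −0.35 (batch B), and the HNRNP genes −0.26 and −0.56. The sign differed between batches for SRSF9, HNRNPA1, HNRNPH3 and HNRNPU, 4 of 31 members, against 9.71% of all genes. A term for the interaction of batch and treatment, added after these values were seen, passed FDR under 0.01 for HNRNPH3 and HNRNPA2B1 and for 0.197% of all genes.

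Promoter sequence was read for 31 of the 33 members from RefSeq windows of GRCh38.p14 that run from 250 bases before to 50 after each annotated start, with several windows where a gene has several starts. The 150 bases before a start are shown as examples for 3 of the 6 members with the largest called falls. The 3 were taken because no 30 bases of the stretch lie in a GENCODE transcript of the gene and each holds a different set of the searched motifs. Their difference in motifs thus comes from this choice. The SRSF8 stretches also met the transcript condition but are not shown, and their only motif is the CCAAT, as in SRSF3. The 3 stretches shown are on the strand of the gene, with motif letters in capitals. They are HNRNPA1L2 (chr13:52617375-52617524, plus strand), HNRNPK (chr9:83980616-83980765, minus strand) and SRSF3 (chr6:36594212-36594361, plus strand).
HNRNPA1L2: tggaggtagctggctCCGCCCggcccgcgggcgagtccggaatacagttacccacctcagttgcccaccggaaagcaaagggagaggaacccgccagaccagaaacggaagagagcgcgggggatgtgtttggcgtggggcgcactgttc
HNRNPK: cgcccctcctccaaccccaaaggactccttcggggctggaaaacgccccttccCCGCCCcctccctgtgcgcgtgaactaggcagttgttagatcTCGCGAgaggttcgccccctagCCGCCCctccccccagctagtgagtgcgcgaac
SRSF3: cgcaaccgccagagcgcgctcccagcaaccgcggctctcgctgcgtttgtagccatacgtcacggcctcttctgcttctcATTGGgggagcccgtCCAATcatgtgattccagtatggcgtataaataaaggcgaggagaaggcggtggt

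The motifs searched on both strands were the CCAAT box (CCAAT), the GC box (GGGCGG), an E-box (CACGTG), an ETS site (CCGGAAG) and a CG palindrome (TCGCGA), none of which contains another. The SRSF3 stretch holds a CCAAT on each strand, the HNRNPK stretch holds the palindrome between a pair of GC boxes, and the HNRNPA1L2 stretch holds a GC box alone. A CCAAT occurred in 17 of 20 HNRNP genes and 2 of 11 SRSF genes with a window, SRSF3 and SRSF8, and in 39.7% of 27305 genes. The GC box was in 16 of 20 HNRNP and 5 of 11 SRSF genes, and in 48.3% of all. The E-box was in 6 of 20 HNRNP and 0 of 11 SRSF genes, and in 8.77% of all. The palindrome was in SRSF4, SRSF10, HNRNPK, HNRNPH3 and HNRNPUL1 and in 3.76% of all genes, and the ETS site was in 4 of the 31 members and 12.2% of all. Among members called lower, 11 of 18 with a window had a CCAAT and 2 of 18 an E-box, and among tested members not called lower these numbers were 7 and 4 of 11. HNRNPUL2 and HNRNPUL2-BSCL2 share most of their window, members with several windows had more bases in which a match could occur, and a match describes letters only.

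Ratios of related genes were compared within each library, where no scaling between libraries enters. Of 10 pairs, 7 had no overlap between groups, each with an exact permutation p of 0.1, the smallest that 3 libraries against 3 allow, and 0.143 after adjustment over the 10 pairs. The levels of single genes did not overlap for 37.8% (lower) and 38.8% (higher) of all genes, so 7 of 10 is near that background and is no result about the pairs. The ratio of SRSF1 to SRSF9 was 3.23, 3.22 and 3.48 in the not treated libraries and 1.94, 2.03 and 2.19 in the maltonis libraries. SRSF1 lost ground to its closest relative in both batches, with a log2 change of −0.73 within batch A and −0.66 within batch B. The ratio of SRSF4 to SRSF6 was 0.351, 0.409 and 0.385 in the not treated libraries and 0.590, 0.584 and 0.586 in the maltonis libraries, nearly constant among maltonis libraries (log2 change 0.62). The ratio of SRSF3 to SRSF7 was 1.17, 1.54 and 1.54 in the not treated libraries and 0.932, 1.04 and 1.09 in the maltonis libraries.

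SRSF2 gained on its copy SRSF8, with ratios of 6.32, 6.14 and 5.94 in the not treated libraries and 8.17, 8.40 and 7.80 in the maltonis libraries. The ratio of HNRNPH1 to HNRNPH2 was 87.7, 73.3 and 84.6 in the not treated libraries and 44.2, 46.8 and 57.3 in the maltonis libraries, a log2 change of −0.73. HNRNPU fell behind HNRNPUL1, with ratios of 3.70, 5.63 and 5.85 in the not treated libraries and 2.08, 3.23 and 3.31 in the maltonis libraries, and the change was −0.83 within batch A and −0.81 within batch B. HNRNPA1 relative to HNRNPA2B1 had ratios of 0.104, 0.0905 and 0.0843 in the not treated libraries and 0.114, 0.122 and 0.13 in the maltonis libraries, a change of 0.14 within batch A and 0.53 within batch B. The groups overlapped for HNRNPF to HNRNPH3, HNRNPL to HNRPLL and HNRNPD to HNRPDL. The ratio of HNRNPF to HNRNPH3 was 27.4, 5.50 and 4.61 in the not treated libraries and 14.6, 8.76 and 9.15 in the maltonis libraries, with the first not treated library far above all others.

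**Figure D4:**
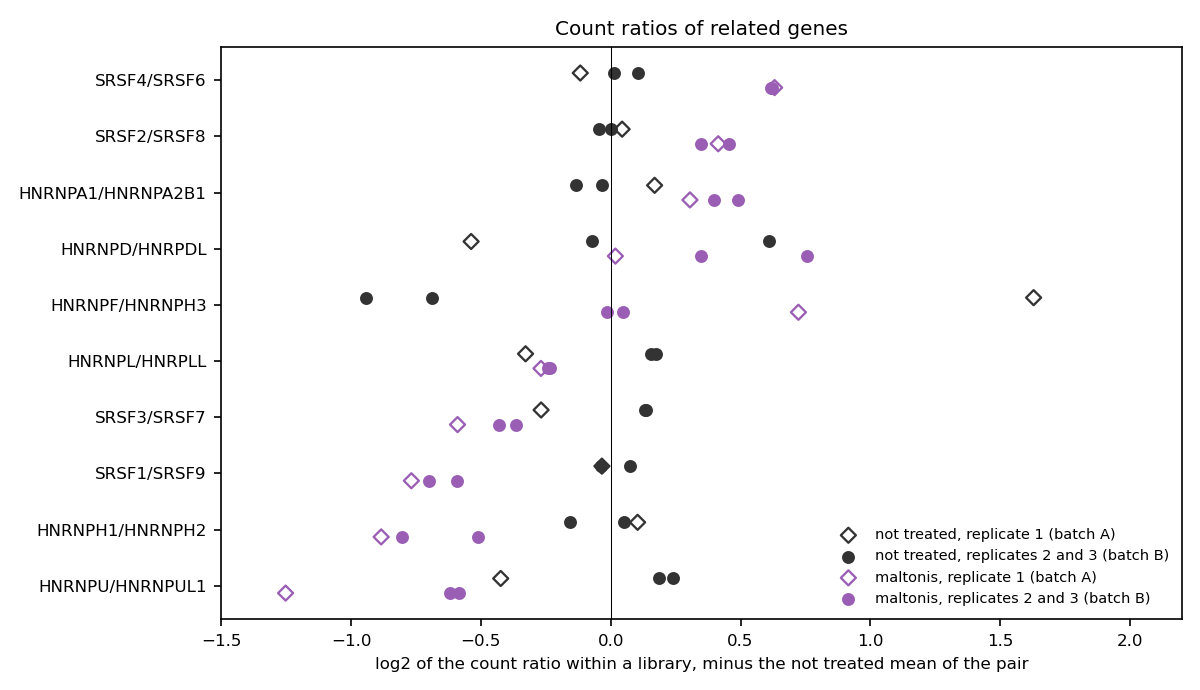
Log2 of the ratio of counts of related genes in each library, with the not treated mean of the pair set to 0, sorted by change. Diamonds are replicate 1 (batch A) and filled circles replicates 2 and 3 (batch B). Maltonis libraries are separate from not treated libraries in 7 pairs, and for HNRNPF/HNRNPH3 not treated replicate 1 lies far to the right of the rest.

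The makeup of each family was described by the share of each gene in the family counts. SRSF1 took 24.6% ± 1.15 (SD, n = 3) of SRSF counts not treated and 21.0% ± 0.452 with maltonis, and SRSF3 took 13.4% ± 1.62 and 9.91% ± 0.64. The share of SRSF9 was 7.44% ± 0.548 and 10.2% ± 0.411, that of SRSF5 4.54% ± 0.323 and 7.24% ± 0.196, and that of SRSF4 3.45% ± 0.385 and 5.82% ± 0.0048. For each of these 5 genes the shares of the groups did not overlap. The same held for SRSF6 and SRSF8, while SRSF2, SRSF7, SRSF10, SRSF11 and SRSF12 overlapped. The levels of single genes did not overlap for 37.8% (lower) and 38.8% (higher) of all genes, so such separation is no result about these shares. Among HNRNP counts HNRNPUL1 took 3.42% ± 0.541 not treated and 6.75% ± 1.65 with maltonis, and HNRNPC took 8.82% ± 1.33 and 6.56% ± 0.294. Shares in a family sum to a fixed total, so a larger share of 1 gene needs a smaller share of others.

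The list of SR kinases and their importer held calls in both directions. Of its 10 genes 3 fell (30%) and 2 rose (20%), against 32.1% and 31.9% of all genes (median log2 fold change −0.01). The share that fell is near the background and is no result about the list. SRPK1, the main cytoplasmic SR kinase, had 454, 473 and 489.6 normalized CPM not treated and 346, 355 and 363 with maltonis (log2 fold change −0.41 ± 0.0556 (SE), adjusted p = 1.55e-04). CLK1, a nuclear kinase of the SR tail, had 94.1, 87.5 and 87.0 normalized CPM not treated and 59.6, 64.2 and 65.2 with maltonis (log2 fold change −0.51 ± 0.0643 (SE), adjusted p = 1.09e-04), and PRPF4B fell with a log2 fold change of −0.49 ± 0.0980. The CLK1 relatives CLK2 and CLK3 rose, with 24.6, 28.6 and 31.3 normalized CPM not treated and 43.4, 38.5 and 44.0 with maltonis for CLK2 (log2 fold change 0.57 ± 0.101 (SE), adjusted p = 8.36e-04) and a log2 fold change of 0.38 ± 0.0653 for CLK3. Of 17 SR-related proteins 6 fell (35.3%), which is near the share of all genes, and 1 rose (5.88%), with a median of −0.24. The largest falls were in RBM25 (−1.20 ± 0.0662) and TRA2B (−0.84 ± 0.0533), a sequence-specific enhancer binder, and the rise was in PNN (0.50 ± 0.0980).

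Genes for proteins of the hnRNP type under other symbols fell more often than they rose. Of 22 tested 12 fell (54.5%) and 2 rose (9.09%), against 32.1% and 31.9% of all genes (median −0.38). HNRPDL, a relative of HNRNPD listed under its older symbol, had 366, 355 and 343 normalized CPM in the not treated libraries (replicates 1, 2 and 3) and 146, 147 and 152 in the maltonis libraries, with tight replicates in both groups (log2 fold change −1.26 ± 0.0550 (SE), adjusted p = 2.10e-07; −1.33 within batch A and −1.22 within batch B). SYNCRIP, the closest relative of HNRNPR, had 334, 423 and 477 normalized CPM not treated and 171, 228 and 219 with maltonis (log2 fold change −0.997 ± 0.145 (SE), adjusted p = 2.51e-04). PTBP1, the polypyrimidine tract binding repressor, had 464, 458 and 423 normalized CPM not treated and 332, 284 and 276 with maltonis (log2 fold change −0.59 ± 0.0812 (SE), adjusted p = 1.74e-04; −0.48 within batch A and −0.65 within batch B). The rises were in PCBP3 (2.15 ± 0.178), which had 0.852, 1.52 and 1.51 normalized CPM not treated and 5.99, 5.97 and 6.03 with maltonis, and in the cold-inducible CIRBP (0.52 ± 0.0704).

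Genes of the core spliceosome and of the decay pathway were counted in the same way, against 32.1% lower and 31.9% higher among all genes. Of 25 genes of the U1 and U2 particles 13 fell and 2 rose (median −0.52), with the largest falls in SNRPD3 (−1.15 ± 0.0605) and SNRPF (−1.15 ± 0.144), both of the Sm ring, and rises in SF3B4 (0.62 ± 0.108) and U2AF1L4 (1.69 ± 0.187). Of 25 genes of the tri-snRNP 15 fell and 2 rose (median −0.39), led by LSM6 (−1.97 ± 0.117) and the GTPase EFTUD2 (−1.33 ± 0.0515), with rises in PRPF6 (0.51 ± 0.0543) and CD2BP2 (0.61 ± 0.0642). Of 15 genes of the exon junction complex and nonsense-mediated decay 1 fell, CASC3 (−0.75 ± 0.0812), and 6 rose, a share of 40.0% that is near the background (median 0.20), with the largest rises in UPF3B (1.45 ± 0.163) and SMG9 (0.99 ± 0.0831). UPF3B had 34.4, 26.8 and 27.1 normalized CPM not treated and 101, 71.3 and 68.3 with maltonis. Of 20 other splicing regulators 7 fell, a share of 35% that is near the background, and 3 rose (15%), with a median of −0.18. The largest falls were in RBFOX2 (−1.46 ± 0.114) and in KHDRBS3 (−1.80 ± 0.427), which had under 1 CPM in every library. The largest rises were in MBNL2 (0.71 ± 0.0885) and PSPC1 (0.47 ± 0.0628). Over these 7 lists together 57 of 134 genes fell and 18 rose.

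**Figure D5:**
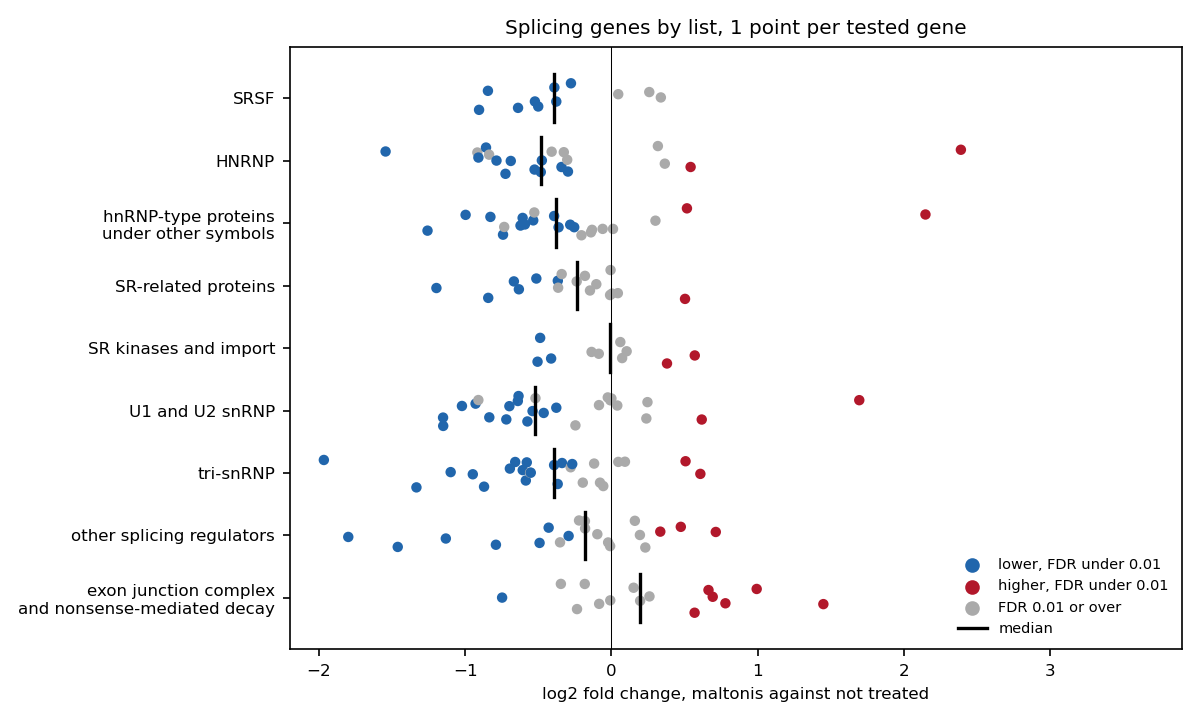
Log2 fold change of maltonis against not treated for each tested gene of the SRSF and HNRNP families and of 7 other lists of splicing genes, with the list median as a black bar and vertical scatter only to separate points. Blue and red points have FDR under 0.01. The medians run from −0.52 for the U1 and U2 particles to 0.20 for the exon junction complex and decay genes.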

How the data were processed

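The authors prepared libraries of total RNA with a strand-marking kit and deposited a table of HTSeq counts per library, whole numbers of reads per gene symbol without normalization. The submitters' processing notes name TopHat, Bowtie2, HTSeq and hg19, and the annotation and the strand setting are not given in the sources used here. Libraries were grouped by their labels, which give 3 biological replicates per group. Each library differed from its replicates by more than sampling noise (chi-square per degree of freedom from 4.16 to 33.1). Precision of low counts is limited by depth, and 3 counts were taken as the limit of a count of 0, which covers counting error only.

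Counts were analyzed in R 4.3.3 with edgeR 4.0.16 (TMM scaling, filterByExpr, quasi-likelihood test, no covariates), with Benjamini-Hochberg adjustment over the 13209 genes tested and calls at FDR under 0.01. All adjusted p-values come from this test unless another is named. SE is the size of the log2 fold change over the square root of the F statistic. Normalized CPM used TMM-scaled library sizes, and log2 differences within batches a prior count of 2. RPKM used the summed length of annotated exons in GENCODE 29, so genes with many annotated exons read low. Ratios needed 10 counts of each gene in every library, which 2 of the listed pairs did not reach, and were tested with two-sided exact permutation tests. Promoters came from RefSeq on GRCh38.p14, a different build from that of the counts, and were matched by symbol. Figures were drawn with matplotlib 3.10.9. The test was checked on simulated data.

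Alternatives were other scalings, DESeq2 1.42.0, other filters on low counts, a replicate block, batch as a covariate, batch B alone and leaving out each library. Values per library are given for all tested members. Of each other list the 2 largest called rises and falls are named, and also PTBP1, SRPK1 and CLK1. The members and lists were chosen with earlier results of these data known.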

Additional observations from a re-analysis of the deposited data

Results flagged for a closer look

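HNRNPH3 and HNRNPA2B1 had unequal differences between maltonis and not treated libraries in the 2 batches. The test was added after these differences were seen, so its p-values are a description of these libraries and not independent evidence. In edgeR with a term for the interaction of batch and treatment, HNRNPH3 changed by −1.57 more on the log2 scale in batch B than in batch A (adjusted p = 0.00126), with within-batch differences of 0.50 in batch A and −1.07 in batch B. HNRNPA2B1 changed by −0.829 more in batch B (adjusted p = 0.00385), with −0.12 in batch A and −0.95 in batch B. The term passed for 2 of 20 HNRNP genes, 0 of 11 SRSF genes and 0.197% of all genes tested, and at an unadjusted p under 0.05 for 10 HNRNP genes, 1 SRSF gene and 1507 of 13209 genes. Batch A holds 1 library per group, so its difference has no replicate and the spread in the test comes from the batch B libraries and from the moderation over all genes. In both genes not treated replicate 1 was below the other not treated libraries, by 2.31 for HNRNPH3 and 0.84 for HNRNPA2B1 on the log2 scale. The cause was not tested.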

How the results depend on the processing

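The 8 SRSF genes called lower numbered 7 or 8 under every alternative run, while SRSF genes called higher, 0 in the main result, numbered 2 with total-count scaling, upper-quartile scaling, DESeq2, a filter of CPM above 1, batch as a covariate, batch B alone and the replicate block, 1 with no filter, and 0 to 2 without single libraries. HNRNP genes called lower, 11, numbered 6 with total-count and with upper-quartile scaling and 5 to 16 without single libraries. The 5 came without not treated replicate 2, where 3801 of 13394 genes were lower. The 16 came without not treated replicate 1, where 4457 of 13582 were lower. HNRNP genes called higher, 2, numbered 1 with the CPM filter and 0 to 2 without single libraries. Of all genes, the calls higher without single libraries ran from 3503 of 13294 (maltonis replicate 2 left out) to 4336 of 13582 (not treated replicate 1 left out). The single member past the fold criterion on the higher side was lost with the CPM filter (0), whose construction removes HNRNPUL2-BSCL2, and the count was 0 to 1 without single libraries. Total-count scaling moved the median of all genes to 0.13 and upper-quartile scaling to 0.10. Of all 13209 genes, 4239 were lower and 4213 higher in the main fit. These were 3652 and 4902 with total-count scaling, 3820 and 4722 with upper-quartile scaling, and 4743 and 4731 with batch as a covariate. They were 4435 and 4340 of 15422 with DESeq2 and 4009 and 4002 of 12095 with the CPM filter. With no filter they were 4372 and 4363 of 18253, and in batch B alone 4678 and 4623 of 13407.

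Batch A alone turned the sign of HNRNPA1 (0.016), HNRNPH3 (0.50), HNRNPU (0.045) and SRSF9 (−0.025), and SRSF9 ran from −0.021 (without not treated replicate 3) to 0.077 without single libraries. The change of HNRNPA1/HNRNPA2B1, 0.40, was 0.53 in batch B alone. The change of HNRNPF/HNRNPH3, 0.25, ran from −0.22 to 1.07 without single libraries. These causes were not tested. No label ties libraries of equal number to a shared culture, and their deviations correlated at 0.301, 0.0852 and 0.161, so the numbers were not taken as pairs. With the replicate block 13 HNRNP genes were lower and 3 higher, and 8 SRSF genes were lower. In that fit 4620 of all 13209 genes were lower and 4602 higher. The HNRNP calls added were HNRNPD and HNRNPUL2 lower and HNRNPA0 (0.35) higher.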
